A study of Homo sapiens with 2 samples.

Results

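The IL1 family of cytokines and receptors was examined in PLC8024 cells with and without a knockout of MAEL. The 10 genes were chosen by name, among 58735 in the deposited table, with the counts of these same libraries known, in which the antagonist IL1RN stood out. Their values are therefore a description. The data are 1 library of MAEL WT cells, which carry the wildtype genotype and are listed as non-treated, and 1 library of MAEL KO cells, in which MAEL was targeted with an sgRNA. Both come from PLC8024, the human hepatoma line PLC/PRF/5, which the labels also call Alexander cells. The study's methods describe knockout cells grown as single clones after transfection with a Cas9 plasmid, so a difference between the libraries cannot be told apart from a difference between a clone and the parental culture. With 1 library per genotype there is no replicate error, no test between the genotypes and no p-value, and every 95% interval below is an exact interval for counting error only. In bulk RNA, fewer cells expressing a gene and less of its RNA per cell cannot be told apart.

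IL1 signalling starts when IL1A or IL1B binds the receptor IL1R1, which then recruits the co-receptor IL1RAP and passes the signal through MYD88 and IRAK kinases to NF-kB. IL1RN, the IL1 receptor antagonist, occupies IL1R1 without recruiting IL1RAP, and hepatocytes are known to release it during the acute-phase response. IL18 and IL33 are related agonists with receptors of their own, IL18BP is a secreted protein that neutralises IL18, IL1R2 is a decoy receptor, and SIGIRR is a receptor that dampens signalling by other members.

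The libraries summed to 19904136 counts for MAEL WT and 20833332 for MAEL KO. The floor of detection was taken as 3 counts, which equal 0.151 and 0.144 CPM, a count scaled to the total of its library. MAEL itself had 1 count in MAEL WT and 0 in MAEL KO, so its transcript could not check the labels. All 6 hepatocyte markers examined had at least 10 counts in both libraries, and their summed level was 11263 CPM in MAEL WT and 21813 CPM in MAEL KO, with 6 of 6 higher in MAEL KO. ALB alone had 59 counts in MAEL WT and 8550 in MAEL KO, and the part of the hepatocyte markers in the results below was not tested. The 2 cholangiocyte markers KRT7 and KRT19 summed to 73 and 2 counts and the 4 fibroblast and stellate markers to 218 and 41, both sums lower in MAEL KO. The 4 lymphocyte markers summed to 36 and 5 counts. The 3 endothelial markers summed to 353 and 407, a sum higher in MAEL KO.

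IL1RN was detected with the knockout and not without it. It had 0 counts in MAEL WT, which allows up to 0.151 CPM, and 191 counts in MAEL KO. Its level in MAEL KO was 3.09 FPKM, reads scaled to gene length and library size, a level per length above that of 57.5% of the protein-coding genes of that library. On GRCh38 the gene (ENSG00000136689) spans positions 113107214 to 113134016 of chromosome 2, plus strand, where no other listed gene overlaps it. Against the floor of 3 counts in MAEL WT, and with its 191 counts taken without error, its normalized level was at least 73.7-fold higher in MAEL KO. With the counting error of both libraries, the end of its 95% interval nearest to no change was a log2 difference, MAEL KO against MAEL WT, of 5.89. Of 3940 protein-coding genes with 0 counts in MAEL WT, 3433 were also at 0 in MAEL KO, 13 reached 10 counts there and IL1RN alone reached 100. In the other direction, 4578 protein-coding genes had 0 counts in MAEL KO. Of those, 93 reached 10 counts in MAEL WT and 2 reached 100.

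GENCODE 29 gives IL1RN 9 transcripts that begin at 7 positions, some encoding the secreted antagonist and others its intracellular forms. Counts per gene do not show which start was used. The sequences at the first and the next start in the RefSeq promoter table are shown because they precede transcripts of the gene with the largest difference of the family. A further listed start lies close to the next one, and its overlapping window is not repeated. Capitals mark matches to short motifs on either strand. The first runs over chr2:113117721-113117892 on the plus strand of GRCh38.p14 and stops 79 bases before its start, where a transcript annotated in GENCODE begins, and the next runs over chr2:113127239-113127510 and ends 21 bases after its start.

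IL1RN, first start: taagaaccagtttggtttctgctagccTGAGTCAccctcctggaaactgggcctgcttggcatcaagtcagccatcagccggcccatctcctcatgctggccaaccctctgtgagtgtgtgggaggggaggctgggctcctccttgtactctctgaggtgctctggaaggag

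IL1RN, next start: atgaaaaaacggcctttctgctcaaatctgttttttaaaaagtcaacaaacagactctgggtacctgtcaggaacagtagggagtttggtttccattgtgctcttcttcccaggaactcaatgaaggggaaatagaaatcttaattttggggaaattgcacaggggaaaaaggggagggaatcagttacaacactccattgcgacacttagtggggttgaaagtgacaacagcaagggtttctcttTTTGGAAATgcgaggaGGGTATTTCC

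Motifs were searched in RefSeq windows from 250 bases before to 50 bases after each start. The AP-1 motif TGANTCA matched once in the window of the first start, as TGAGTCA, beginning at position -223 from that start. In the window of the next start, the C/EBP motif TTNNGNAAT matched as TTTGGAAAT and the NF-kB motif, GGG, any 2 bases, TT, any base and CC, matched as GGGTATTTCC. They begin at positions -4 and 12 from that start. Of 35116 windows of the same length over all genes, 7.71% held the AP-1 motif, 11.0% the C/EBP motif and 5.68% the NF-kB motif. The promoter table held 20 windows of 9 of the 10 genes, and the same search found a C/EBP match also for IL1A, IL1B and IL1R2 and an AP-1 match also for IL1A. The STAT motif TTCNNNGAA, in 7.66% of all windows, matched for IL18BP, IL1B, IL1R1 and IL33. These are matches of letters only, and no binding was measured in these libraries.

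The agonists that IL1RN competes with were not detectable in either library. IL1A, which acts as an alarm signal from damaged cells, had 0 counts in MAEL WT and 1 in MAEL KO. IL1B, the main secreted agonist, had 0 counts in both libraries, and so had IL33, an alarm cytokine of barrier cells. In MAEL KO, IL1RN took 191 of the 192 reads of IL1RN, IL1A and IL1B, a share of 99.5% (95% interval 97.1% to 99.99%). Per kilobase of gene length it stood at 58.7 reads against 0.471 for both agonists together, a ratio of 125 (95% interval 22.1 to 4947). In MAEL WT none of these genes had a read, so no ratio exists there.

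IL1RN was the only gene of its chromosomal cluster with more than 1 read. The cluster of 9 IL1 family ligands spans 360 kb of chromosome 2, from 112773915 to 113134016, and its 8 other genes, IL1A, IL1B, IL37, IL36G, IL36A, IL36B, IL36RN and IL1F10, held 0 reads in MAEL WT and 1 in MAEL KO. Within 500 kb of IL1RN on either side, 40 genes are listed with IL1RN itself and 13 had at least 10 counts in 1 library. The nearest of these was PSD4, an exchange factor for ARF6 whose start lies 50.1 kb downstream. PSD4 had 82 counts in MAEL WT and 150 in MAEL KO, a log2 difference of 1.07 (95% interval 0.68 to 1.49), or 0.80 with scaling by total counts.

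On the far side of the undetected ligands, CKAP2L, a spindle protein gene, had 190 counts in MAEL WT and 535 in MAEL KO, and SLC20A1, a phosphate transporter, had 2057 and 2504. Beyond PSD4, PAX8, a transcription factor of thyroid and kidney, had 17 and 12 counts. Their log2 fold changes were 1.70, 0.49 and -0.27. NT5DC4 had 18 and 2 counts and the long non-coding RNA FLJ42351 had 87 and 45, both lower in MAEL KO. The remaining 6 neighbours lie more than 300 kb downstream, and several have near-identical copies elsewhere in the genome that make their reads uncertain. They were CBWD2 at a log2 fold change of 0.16 (-0.12 with total counts), WASH2P at -0.71, AL078621.3 at -0.47, RPL23AP7 at -0.34, RABL2A at -0.53, and DDX11L2, which had 31 counts in MAEL WT and 2 in MAEL KO. IL1RN was thus the only gene of this stretch with at least 10 counts in MAEL KO and fewer than 10 in MAEL WT.

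**Figure D1:**
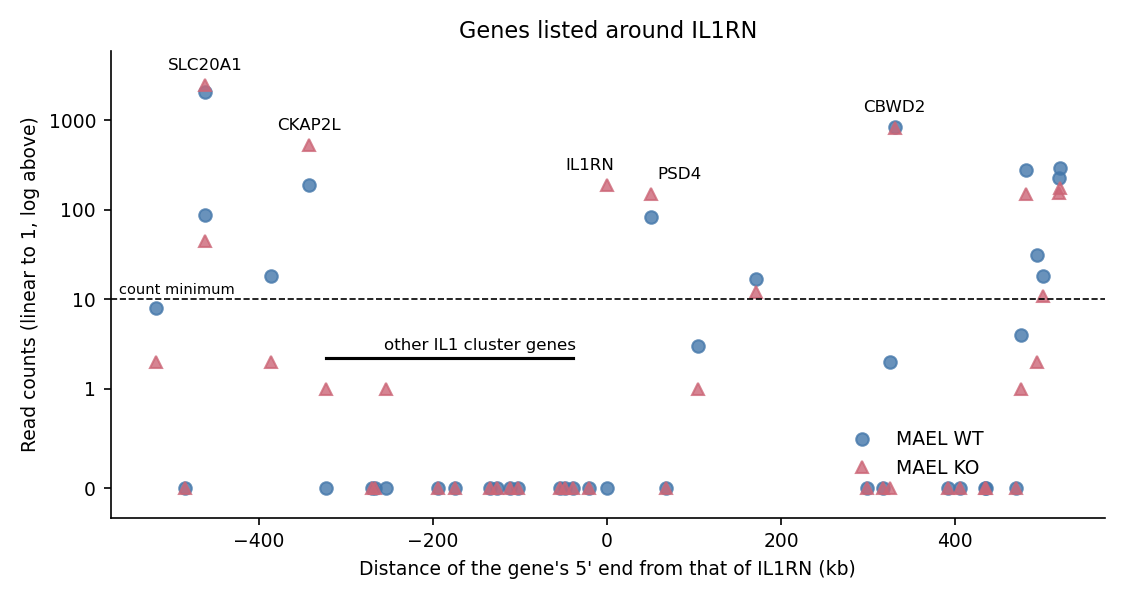
Read counts of the 40 genes listed within 500 kb of IL1RN, by the distance of each gene's 5′ end from that of IL1RN in kb, with MAEL WT as circles and MAEL KO as triangles (1 library each). The count axis is linear up to 1 and logarithmic above, and the dashed line marks 10 counts. IL1RN stands at 0 in MAEL WT and 191 in MAEL KO, beside 8 other cluster genes that hold 1 read in all.

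Among protein-coding genes with 0 counts in MAEL WT, those with the next most counts in MAEL KO were far below IL1RN. This set leaves out genes with any read in MAEL WT. ALB, at 59 and 8550 counts, had a log2 difference of 7.36 (95% interval 7.02 to 7.78). DPYD, which breaks down pyrimidines, had 22 counts in MAEL KO. SLC12A3, a sodium chloride transporter of the kidney, had 21, the organic anion transporter SLC22A8 had 17, the hepatic sulfotransferase SULT2A1 had 16 and the chemokine receptor CCR6 had 15. The ends of their 95% intervals nearest to no change ran from a log2 difference of 2.05 for CCR6 to 2.66 for DPYD.

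Cells other than hepatocytes that are known to make IL1RN were looked for by their markers. The 5 keratinocyte markers, KRT5, KRT14, TP63, IVL and SPRR1B, were all at 0 in MAEL KO and summed to 6 counts in MAEL WT. The 7 monocyte and macrophage markers summed to 1372 counts in MAEL WT and 781 in MAEL KO, and 6 of the 7 were lower in MAEL KO. Most of these reads were of LYZ, with 1251 and 737 counts, and CD163 had 52 and 11 and ITGAM 50 and 21. PTPRC, the defining marker of blood cells, had 3 counts in MAEL WT and 0 in MAEL KO, CD14 had 9 and 5, and CD68 had 2 and 5. The part of cells with these markers in the level of IL1RN was not tested.

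The IL18 arm was expressed in both libraries and lower in MAEL KO. IL18, which activates natural killer and T cells, lies on chromosome 11 from 112143251 to 112164117 and had 498 counts in MAEL WT and 182 in MAEL KO. Its normalized level was 2.37-fold lower in MAEL KO, a log2 difference of -1.24 (95% interval -1.49 to -0.99). IL18BP, the inhibitor of IL18, lies on chromosome 11 from 71998541 to 72005715 and had 318 counts in MAEL WT and 156 in MAEL KO, a log2 difference of -0.81 (95% interval -1.10 to -0.54). Both the agonist and its inhibitor were therefore lower in MAEL KO. Of the 4323 exonic bases of IL18BP, 675 (15.6%) are shared with NUMA1 on the opposite strand, which had 1507 and 1317 counts. The strand setting of the counting is not given in the sources used here, so reads over the shared bases are uncertain.

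The IL18 receptor was thin in these cells. IL18R1, its ligand-binding chain, had 30 counts in MAEL WT and 5 in MAEL KO, a log2 difference of -2.18 (95% interval -4.10 to -0.99), and it overlaps IL1RL1, which had no reads. IL18RAP, the partner chain that IL18 signalling needs, had 0 counts in both libraries.

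Among the receptors of IL1, the co-receptor was higher and the decoy lower in MAEL KO. IL1RAP, the co-receptor shared by the IL1, IL33 and IL36 receptors, lies on chromosome 3 from 190514051 to 190659750. Its 258 counts in MAEL WT and 568 in MAEL KO made it 2.55-fold higher after normalization, a log2 difference of 1.35 (95% interval 1.13 to 1.57). IL1R2, which binds IL1 without signalling, lies on chromosome 2 from 101991844 to 102028544. Its 346 counts in MAEL WT and 157 in MAEL KO made it 1.90-fold lower, a log2 difference of -0.93 (95% interval -1.21 to -0.65). Of the members that could be compared, IL1RAP was thus the other, beside IL1RN, that was higher in MAEL KO.

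IL1R1 and SIGIRR stayed closer to the level of MAEL WT. IL1R1, the signalling receptor for IL1, lies on chromosome 2 from 102064544 to 102179874 and had 991 counts in MAEL WT and 731 in MAEL KO, a log2 difference of -0.23 (95% interval -0.37 to -0.09). SIGIRR, on chromosome 11 from 405716 to 417455, had 783 counts in MAEL WT and 534 in MAEL KO, a log2 difference of -0.34 (95% interval -0.50 to -0.18). Both intervals lie below 0 with counting error alone, but either difference is about as large as the shift that another scaling brings. With total counts in place of the TMM scaling, the median of all genes moved from -0.04 to -0.31, and IL1R1 moved to -0.50 and SIGIRR to -0.62.

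Ratios between members within a library do not depend on the scaling between libraries. The 5 pairs below were chosen after the counts had been seen. Per kilobase, IL1R1 stood at 6.27 times IL1RAP in MAEL WT (95% interval 5.46 to 7.22) and at 2.10 times in MAEL KO (1.88 to 2.35), a change of -1.58 on the log2 scale (-1.84 to -1.32). IL1RAP stood at 0.198 times the decoy IL1R2 in MAEL WT and at 0.962 times in MAEL KO, a log2 change of 2.28 (95% interval 1.92 to 2.63). The signalling receptor IL1R1 stood at 1.24 times the decoy IL1R2 per kilobase in MAEL WT (95% interval 1.10 to 1.41) and at 2.02 times in MAEL KO (1.70 to 2.42). These 3 pairs are made of the same 3 genes, so they are not separate results. How many pairs over all genes differ as much was not computed.

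The balance of IL18 and its inhibitor differed less. Per kilobase, IL18 stood at 2.58 times IL18BP in MAEL WT (95% interval 2.23 to 2.97) and at 1.92 times in MAEL KO (1.54 to 2.39), a log2 change of -0.42 (-0.81 to -0.04) whose interval nearly reached 0. For IL1R1 against SIGIRR the log2 change was 0.11 (95% interval -0.10 to 0.33), which includes no change.

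Levels of different genes were compared per length with the deposited FPKM values. In MAEL WT the order was SIGIRR at 10.2 FPKM, IL18 at 8.66, IL1R1 at 6.40, IL1R2 at 5.15, IL18BP at 3.36 and IL1RAP at 1.02, and the 95% counting intervals of neighbours in this order did not overlap. In MAEL KO it was SIGIRR at 8.06 FPKM, IL1R1 at 5.44, IL18 at 3.65, IL1RN at 3.09, IL1R2 at 2.69, IL1RAP at 2.59 and IL18BP at 1.90. In MAEL KO the interval of IL1RN, 2.67 to 3.57 FPKM, overlapped those of IL18, IL1R2 and IL1RAP, so the order of these genes is not settled even by counting error. IL1RN lay within the range of the other expressed members in MAEL KO.

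**Figure D2:**
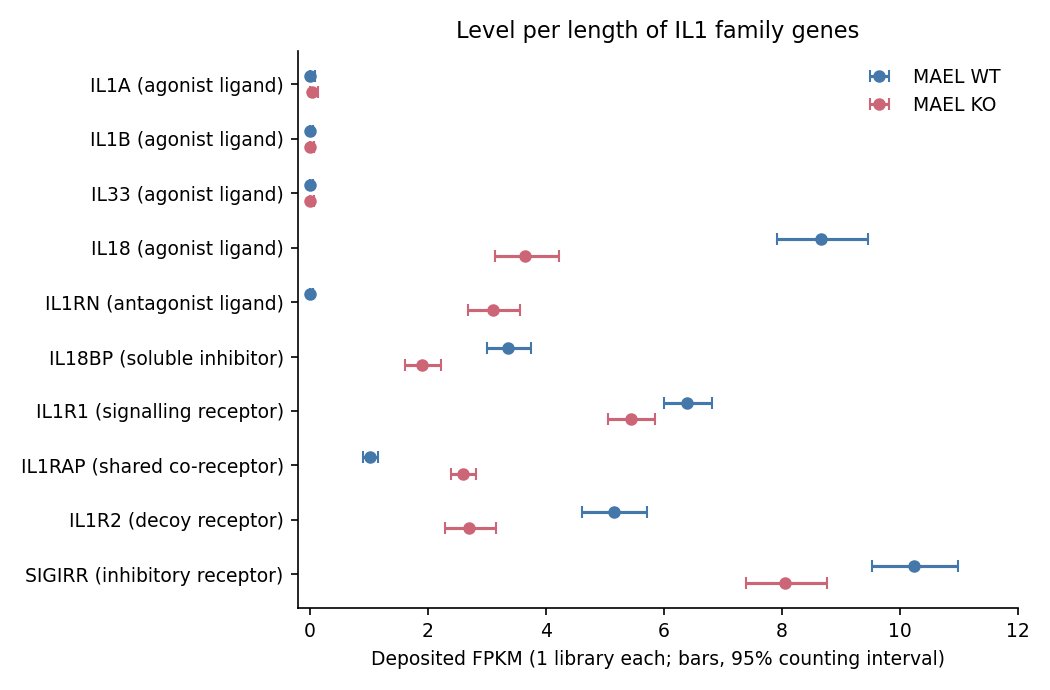
Deposited FPKM of the 10 IL1 family genes in MAEL WT and MAEL KO, 1 library each, with bars for the 95% counting interval. IL1A, IL1B and IL33 lie at or near 0 in both libraries, IL1RN is at 0 in MAEL WT and 3.09 in MAEL KO, and IL1RAP is the other gene above the floor with a higher value in MAEL KO.

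Log2 fold changes of MAEL KO against MAEL WT were taken over 17887 genes that reached 10 counts in either library, after adding 1 to each normalized count. The study's fold threshold of 2 on the log2 scale was passed upward by 387 genes (2.16%) and downward by 1008 (5.64%), so that 27.7% of the genes past it were higher in MAEL KO, or 17.0% with total counts. A log2 fold change above 1 was seen for 10.2% of the genes and below -1 for 16.5%. Of the 10 family members, 7 could be compared, and IL1RN was 1 of these only through its reads in MAEL KO. IL1RN passed 2, IL1RAP passed 1 upward and IL18 passed 1 downward. Over the 7 genes the median log2 fold change was -0.34, against -0.04 over all genes compared, and 5 were below 0. These counts describe genes chosen with the values known, and nothing is read from them.

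**Figure D3:**
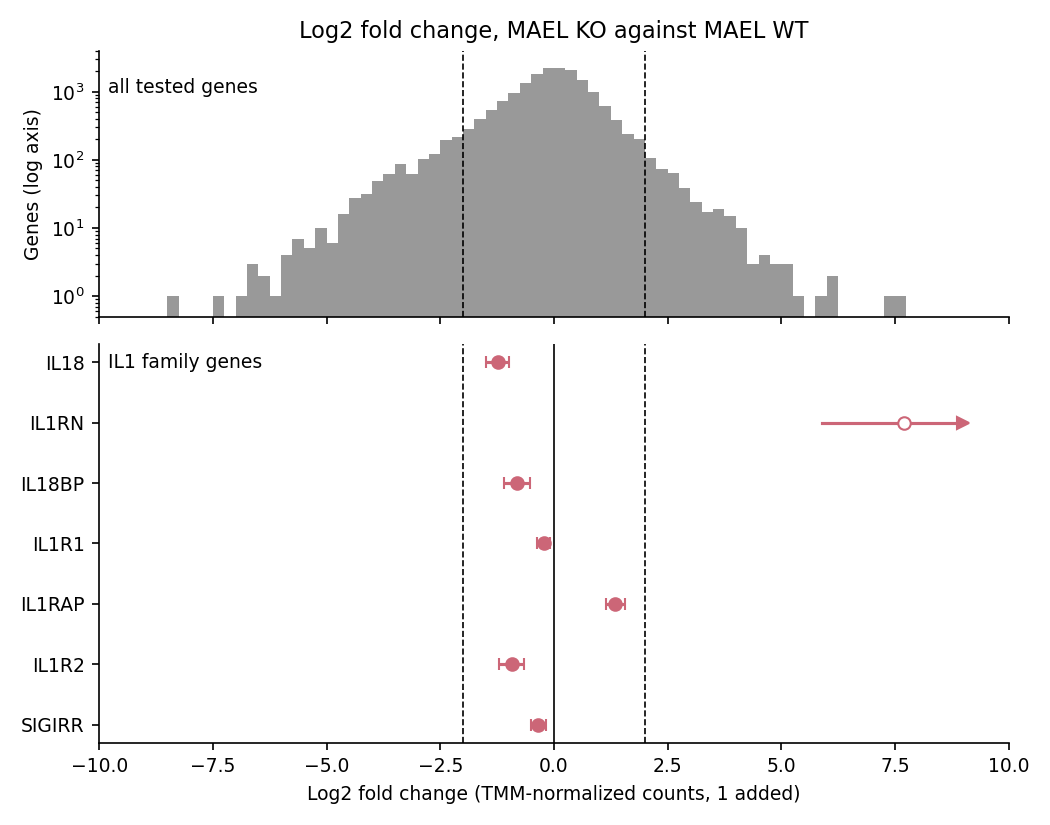
Number of genes by log2 fold change for all 17887 genes compared (top, logarithmic count axis) and the log2 fold changes of the 7 IL1 family genes compared, with 95% counting intervals (bottom). Dashed lines mark 2 and -2, and the open point with an arrow is IL1RN, whose interval has no upper end because MAEL WT had 0 counts.

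The rest of the family was barely detected. Of 12 other IL1 family genes, 9 had 0 counts in both libraries, among them IL1RL1, the receptor of IL33, and IL18R1, given above, was the only gene with at least 10 counts. IL1RL2, the IL36 receptor, had 3 and 2 counts, and IL1RAPL1, a synaptic relative of IL1RAP, had 3 and 0.

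Most components that carry the IL1 signal inside the cell were detected, and IRAK3, an inhibitory relative of the IRAK kinases, had 1 count in each library. Of 22 genes for IL1 receptor signalling 21 were compared, with 9 above 0, 12 below 0 and a median log2 fold change of -0.07. Over all genes compared the median was -0.04, and 2.16% passed the threshold upward and 5.64% downward. In this list 1 gene passed it, downward. This was PELI2, a ubiquitin ligase of the Pellino family, with 15 counts in MAEL WT and 2 in MAEL KO, a log2 difference of -2.25 (95% interval -5.87 to -0.59). IRAK2, a kinase that sustains the signal, had 2056 and 621 counts, a log2 difference of -1.52 (95% interval -1.65 to -1.39). At the upper end were UBE2N, a ubiquitin-conjugating enzyme that works with TRAF6, at 0.80, and the TAK1-binding protein gene TAB3 at 0.57. The adaptor MYD88 had 176 and 86 counts, a log2 fold change of -0.82. The kinase IRAK1 was the most abundant of the list by counts, with 13187 and 9354.

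Of 19 genes for the maturation and release of IL1 family cytokines, 13 were compared, with a median log2 fold change of -0.24. They included 1 past the threshold in each direction, beside 2.16% upward and 5.64% downward over all genes compared. CASP1, the protease that activates IL1B and IL18, had 0 counts in both libraries, as had NLRP3, AIM2 and CASP5. NLRP1, an inflammasome sensor, had 122 counts in MAEL WT and 4 in MAEL KO, a log2 difference of -4.43 (95% interval -6.62 to -3.33). PYCARD, the inflammasome adaptor, had 0 and 11 counts and could be compared only through its reads in MAEL KO. The end of its 95% interval nearest to no change was a log2 difference of 1.54, which is under the threshold. The next lowest was CARD18, an inhibitor related to CASP1, at -1.38, and the next highest was CAPN1, a calpain, at 0.51.

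Genes known to respond to IL1 did not move one way. Of 23 such genes 16 were compared, 7 were above 0 and 9 below. The median log2 fold change was -0.03, against -0.04 over all genes compared. Past the threshold, both downward, were PTGS2, the inducible cyclooxygenase, and the chemokine CXCL8, with 5434 and 1039 counts. Over all genes compared, 5.64% passed it downward and 2.16% upward. PTGS2 had 390 counts in MAEL WT and 1 in MAEL KO, a fitted log2 difference of -7.45 (95% interval -13.70 to -5.91). Against the floor of 3 counts in MAEL KO, PTGS2 was at least 112-fold lower there. At the upper end were the acute-phase protein ORM1, with 627 and 2087 counts and a log2 difference of 1.94 (95% interval 1.82 to 2.08), and NFKBIZ, a nuclear regulator of NF-kB, with 303 and 923 counts and 1.81 (1.63 to 2.01). The chemokine CCL20 followed with 733 and 2119 counts. IL6, CRP and SAA2 had 0 counts in both libraries, and SAA1 had 2 and 5. The study picked PTGS2 from these libraries, so its place on the list is not independent evidence of a direction.

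**Figure D4:**
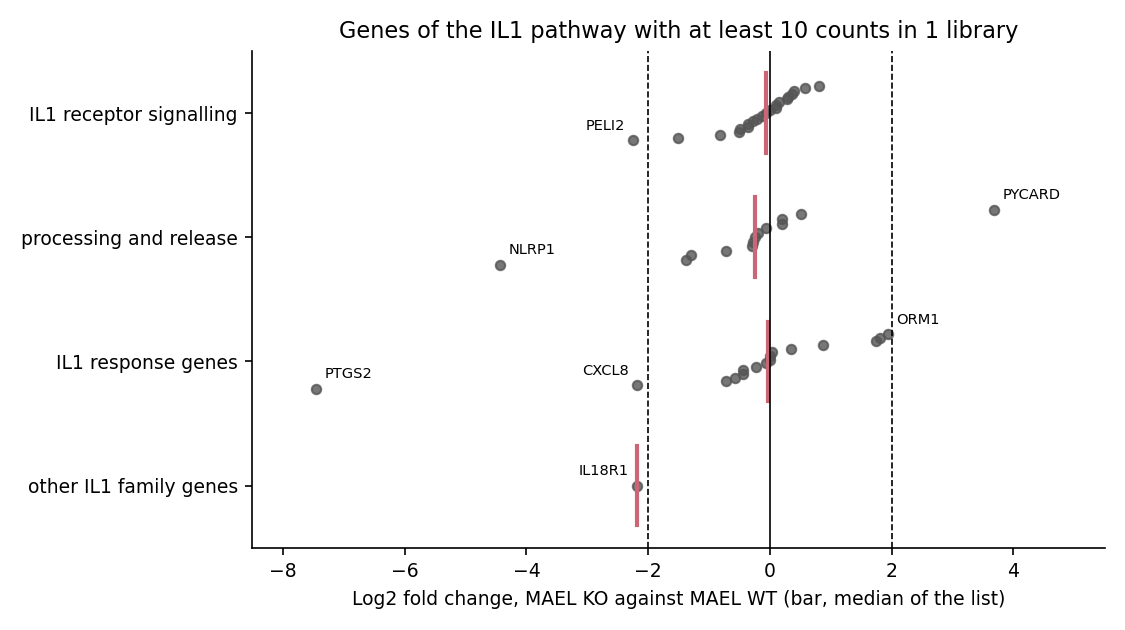
Log2 fold changes of the compared genes of 4 lists, 1 point per gene, with a bar for the median of each list and dashed lines at 2 and -2. Most signalling genes lie within 1 of no change, and the points past the threshold are PELI2, NLRP1, PYCARD, PTGS2, CXCL8 and IL18R1.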

How the data were processed

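Total RNA of both PLC8024 lines, 1 library each, was sequenced on an Illumina HiSeq instrument. Raw read counts and FPKM values of each gene were deposited as separate tables, whose sample columns stand in different orders. The submitters' processing notes name HISAT2 2.0.5, featureCounts 1.5.0-p3 and hg19, but all 58735 identifiers are in GENCODE 29 and 58724 have its GRCh38 start and end. The deposited FPKM values equal counts over gene length and a library size of 1.10 (MAEL WT) and 0.910 (MAEL KO) times the total.

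Counts were scaled by TMM factors from edgeR 4.0.16, 1.100 and 0.909, in R 4.3.3, with size factors from DESeq2 1.42.0 as an alternative. Intervals were computed with SciPy 1.17.1, and matplotlib 3.10.9 drew the plots. Log2 fold changes had 1 added to normalized counts. For fold changes and ratios the 95% intervals rest on the Clopper-Pearson interval of a share of reads, for changes of a ratio on the conditional odds ratio, and for FPKM on the exact Poisson interval. Molecular identifiers are not named in the sources used here, so reads are not taken as independent molecules, and intervals and floors hold counting error alone. The DESeq test of the study's methods could not be used without replicates. The TMM scaling, the fold change and its interval were tested on simulated Poisson counts, with changes placed in well-counted genes only. Bounds for genes at the floor, ratios, FPKM intervals and motif matches were not part of that test.

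The members and lists were chosen with earlier results of these data known. Genes named are all members, MAEL, list genes past the threshold and 2 at each end, genes within 500 kb of IL1RN with at least 10 counts, and the 5 coding genes most like IL1RN. Others named were chosen after their values were seen. Promoter sequences are from RefSeq (GRCh38.p14).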

Additional observations from a re-analysis of the deposited data

How the results depend on the processing

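The 7 members compared kept their direction with prior counts of 0.1 and 5, with the ratio of FPKM values plus 0.01, and with scaling by DESeq2 or by total counts, and IL1RN was the 1 member past the threshold in each. Of 35 member values under these alternatives, 30 stayed within their counting interval and 5 moved, IL1R1, SIGIRR, IL1RAP (1.07) and IL18 (-1.51) with total counts and IL1RN (5.40) with a prior count of 5. IL1RN was at 11.01 with a prior count of 0.1, inside an interval that has no upper end, so its fitted value follows the prior count. With total counts the medians were -0.62 for the members, -0.52 for processing and release and -0.31 for response genes. With a prior count of 5, all genes higher and lower numbered 250 and 513, and genes past the threshold numbered 0 for other family genes, 0 for signalling and 1 for processing and release. For genes with at least 100 counts these were 185 and 283, with 0 for signalling and 1 for processing and release, and the median of response genes turned from -0.03 to 0.0049. Without a count filter 1029 and 1773 genes passed, and at a log2 threshold of 1 it was 1827 and 2951. The share higher was 39.5% with at least 100 counts, 36.7% without a filter and 38.2% at a threshold of 1. The ratio of IL1RN to its agonists was 191 without length scaling and at least 60.5 against IL1B alone at the floor, while FPKM values and IL1A alone give the reported 125 by construction. Fewer genes enter at 100 counts by construction, and the cause of the other moves was not tested. No paired analysis was possible because there is 1 library per genotype, and for the same reason no library could be left out. The values of IL18R1, PELI2, PYCARD, NT5DC4 and DDX11L2 rest on few counts, and those of PTGS2 and NLRP1 on few counts in MAEL KO.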
